A study of Mus musculus with 16 samples.

Results

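The antioxidant enzymes described here are 10 genes chosen by name: the glutathione peroxidases Gpx1 and Gpx4, the peroxiredoxins Prdx1, Prdx2, Prdx5 and Prdx6, the superoxide dismutases Sod1 and Sod2, thioredoxin (Txn1) and thioredoxin reductase (Txnrd1). All 10 are among the 54456 gene rows of the count table, and all 10 are among the 15675 genes that passed the filter on low counts. RNA was sequenced from sorted T cells of OT-I mice, which carry a transgenic T cell receptor specific for ovalbumin and make mainly CD8 T cells. The 4 groups, each of 4 libraries, were T cells of visceral adipose tissue (VAT) from mice on a high-fat diet (HFD), of VAT from lean mice, of lymph nodes (LN) from mice on HFD, and of LN from lean mice. The high-fat diet drew 60% of its calories from fat, the lean mice ate standard chow, both diets ran for 8 weeks, and all groups share the OT-I background. The labels give no age, do not say whether animals were pooled, call the cells freshly isolated in one field and held in culture overnight before the sort in another, and carry a growth protocol for human fibroblasts. They also name a pair of library kits and sequencers. Neg-OVA, a term of unstated meaning, stands in every column name of the table.

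These enzymes remove reactive oxygen species in successive steps. Superoxide dismutases turn superoxide into hydrogen peroxide, Sod1 in the cytosol with copper and zinc and Sod2 in mitochondria with manganese. Peroxiredoxins and glutathione peroxidases then reduce peroxides, the first group mostly with electrons from thioredoxin and the second with electrons from glutathione. Thioredoxin is returned to its reduced state by thioredoxin reductase, which uses NADPH, and is bound and held inactive by the thioredoxin-interacting protein Txnip. In T cells, activation raises oxidant production, and Gpx4, which reduces lipid peroxides, is known to protect activated T cells from ferroptosis, a death driven by iron and lipid peroxidation.

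The 250 bases before the annotated start of 3 genes are printed because the results turn on Txn1 and its inhibitor Txnip, and because Prdx1 holds a match to the antioxidant response element, the motif bound by the transcription factor NRF2. The sequences are RefSeq's on GRCm38.p6, each 5′ to 3′ on the strand of its gene: Txn1 at chr4:57956412-57956661 (minus strand), Txnip at chr3:96557707-96557956 (plus strand) and Prdx1 at chr4:116685349-116685598 (plus strand). Capitals mark the match to the motif TGACNNNGC, searched on both strands, which in Prdx1 lies on the opposite strand with its first printed base 133 bases before the start.
Txn1: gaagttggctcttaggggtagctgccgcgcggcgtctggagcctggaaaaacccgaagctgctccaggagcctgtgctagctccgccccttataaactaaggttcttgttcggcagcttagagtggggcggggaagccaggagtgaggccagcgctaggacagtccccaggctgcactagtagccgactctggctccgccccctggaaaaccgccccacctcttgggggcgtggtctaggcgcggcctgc
Txnip: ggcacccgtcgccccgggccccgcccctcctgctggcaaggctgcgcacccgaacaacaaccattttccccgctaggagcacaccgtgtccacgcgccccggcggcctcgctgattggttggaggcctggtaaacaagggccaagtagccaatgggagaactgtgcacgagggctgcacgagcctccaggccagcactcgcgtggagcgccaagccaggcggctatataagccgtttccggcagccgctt
Prdx1: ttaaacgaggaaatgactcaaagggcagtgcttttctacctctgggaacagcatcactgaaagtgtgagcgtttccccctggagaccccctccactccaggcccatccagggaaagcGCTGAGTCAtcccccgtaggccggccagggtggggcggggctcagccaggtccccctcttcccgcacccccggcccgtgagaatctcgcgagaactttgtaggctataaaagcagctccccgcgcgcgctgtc
RefSeq's promoter table held 9 of the 10 enzymes, and 3 of those 9 had a match: Prdx1, Sod1 (GCGTGGTCA, 56 bases before the start) and Txnrd1 (GCTTTGTCA, 92 bases before 1 of its 3 annotated starts). Of all 27025 genes in that table, 3112 (11.5%) had a match in a window of this length. Txn1 and Txnip had none in these windows.

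Library totals were 40212388 to 65957407 counts, and the lowest count of any enzyme in a library was 648 (Sod1, HFD VAT replicate 2). In HFD VAT replicates 1 and 3 and lean VAT replicate 1, between 11.4% and 13.3% of genes whose median in their group's remaining libraries was 10 CPM or more had at most 3 counts; this missing share was 0.818% to 5.45% in the other 13 libraries. The 10 T cell markers were counted in all groups and summed to 8684 to 11490 CPM per library, but 1 was called higher and 1 lower in VAT on HFD, and 1 higher and 2 lower in lean mice. The shares of all genes tested were 2.68% higher and 1.88% lower on HFD, and 2.12% and 0.919% in lean mice. Cd5 had 0 to 36.1 CPM in HFD VAT, against 96.0 to 159 CPM in HFD LN. In lean mice it had 0 to 26.1 CPM in VAT, against 133 to 227 CPM in LN. Cd8a had 1839 to 2299 CPM in HFD VAT, against 533 to 801 CPM in HFD LN, while Cd8b1 had 1102 to 1338 CPM in HFD VAT, against 1965 to 2262 CPM in HFD LN. The 12 B and plasma cell markers summed to 169 to 360 CPM in HFD VAT and 85.8 to 226 CPM in lean VAT, against 1748 to 2570 CPM in HFD LN and 1570 to 2945 CPM in lean LN. Fcmr had 0 counts in both VAT groups. The 11 dendritic cell markers summed to 83.8 to 277 CPM in HFD VAT and 109 to 132 CPM in lean VAT, against 486 to 1270 CPM in HFD LN and 283 to 1584 CPM in lean LN, a sum led by Cd74 and the class II genes. Of the 9 dendritic cell markers tested, 4 had a positive and 5 a negative log2 fold change on HFD, and 3 and 6 in lean mice. Among those against the sum was Itgax, with 39.4 to 108 CPM in HFD VAT and 0 in all HFD LN libraries. In lean mice Xcr1 had 6.98 to 34.4 CPM in VAT, against 0.0560 to 5.28 CPM in LN. Clec9a had 0.475 to 2.09 CPM in lean VAT, against 0 to 0.377 CPM in lean LN. The 7 natural killer cell markers summed to 251 to 355 CPM in HFD VAT and 110 to 301 CPM in lean VAT, against 17.3 to 117 CPM in HFD LN and 37.1 to 108 CPM in lean LN. In HFD VAT this sum was led by Fcer1g, with 153 to 248 CPM, against 0 to 9.91 CPM in HFD LN. Of the 6 tested on HFD, 5 had a positive and 1 a negative log2 fold change. Eomes went the other way, with 6.20 to 55.8 CPM in HFD VAT and 13.8 to 109 CPM in HFD LN. Ncr1 had 0 counts in both HFD groups. Macrophage and monocyte markers summed to 33.4 to 131 CPM in HFD VAT and 39.8 to 78.7 CPM in lean VAT, against 62.0 to 174 CPM in HFD LN and 39.4 to 188 CPM in lean LN. That sum holds opposite parts: Cd68 had 26.5 to 131 CPM in HFD VAT and 18.9 to 78.6 CPM in lean VAT, against 0 to 2.36 CPM in HFD LN and 0 to 6.07 CPM in lean LN. Apoe had 0 to 0.0227 CPM in HFD VAT and 0 to 12.3 CPM in lean VAT, against 62.0 to 174 CPM in HFD LN and 39.3 to 182 CPM in lean LN. C1qa had 0 counts in all 16 libraries. Markers of neutrophils, erythroid cells and adipocytes stayed at or below 38.3 CPM in every library. Those of fibroblasts and endothelium summed to 43.5 to 139 CPM in HFD VAT and 29.5 to 79.4 CPM in lean VAT. In LN they summed to 124 to 204 CPM on HFD and 71.2 to 168 CPM in lean mice. The 1 of them tested had log2 fold changes of -1.277 on HFD and -1.265 in lean mice, without a call (edgeR adjusted p = 0.0624 and 0.0867). The part of these cell types in the differences between tissues was not tested. In bulk RNA, fewer cells of a type and less RNA per cell cannot be told apart.

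The first question was whether T cells of VAT and LN differ in these enzymes. Txn1, the small protein that passes electrons to peroxiredoxins and other targets, rose in VAT under both diets and was the 1 enzyme of the 10 that passed the test in either tissue comparison. Of the 15675 genes tested, 420 (2.68%) were called higher in HFD VAT than in HFD LN and 294 (1.88%) lower, and in lean mice 332 (2.12%) higher in VAT and 144 (0.919%) lower, so a count of 1 in 10 cannot be set apart from these shares. Levels are CPM, counts scaled to a common library size with TMM normalisation, which are not scaled to transcript length and so are compared between groups and not between genes. Txn1 had 374, 325, 424 and 356 CPM in HFD VAT, against 158, 183, 194 and 150 CPM in HFD LN. In lean mice it had 583, 314, 391 and 248 CPM in VAT, against 137, 223, 118 and 160 CPM in LN. Every VAT library lay above every LN library of the same diet, as for 15.2% of all genes in either direction on HFD and 12.9% in lean mice, with lean VAT replicate 1 the highest of the 16.

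On HFD, Txn1 averaged 370 ± 41.5 CPM in VAT and 171 ± 20.7 CPM in LN (SD, n = 4 each). The log2 fold change was 1.11 ± 0.25 (SE), a 2.16-fold higher level with a 95% interval of 1.49 to 3.15 (edgeR quasi-likelihood test, Benjamini-Hochberg adjusted p = 0.0206 over all genes tested). In lean mice the means were 384 ± 145 CPM in VAT and 160 ± 45.4 CPM in LN, and the log2 fold change was 1.27 ± 0.25, or 2.41-fold with an interval of 1.65 to 3.504 (edgeR adjusted p = 0.0116). The call on HFD was lost without HFD LN replicate 1 (edgeR adjusted p = 0.0628), HFD LN replicate 4 (0.0685) or HFD VAT replicate 3 (0.0537), and without the 3 VAT libraries of high missing share (0.0572, at a log2 fold change of 0.98). In lean mice it was lost when only the lean groups entered the fit (edgeR adjusted p = 0.0981), and without lean VAT replicate 1 the log2 fold change was 0.99 (edgeR adjusted p = 0.0238).

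**Figure D1:**
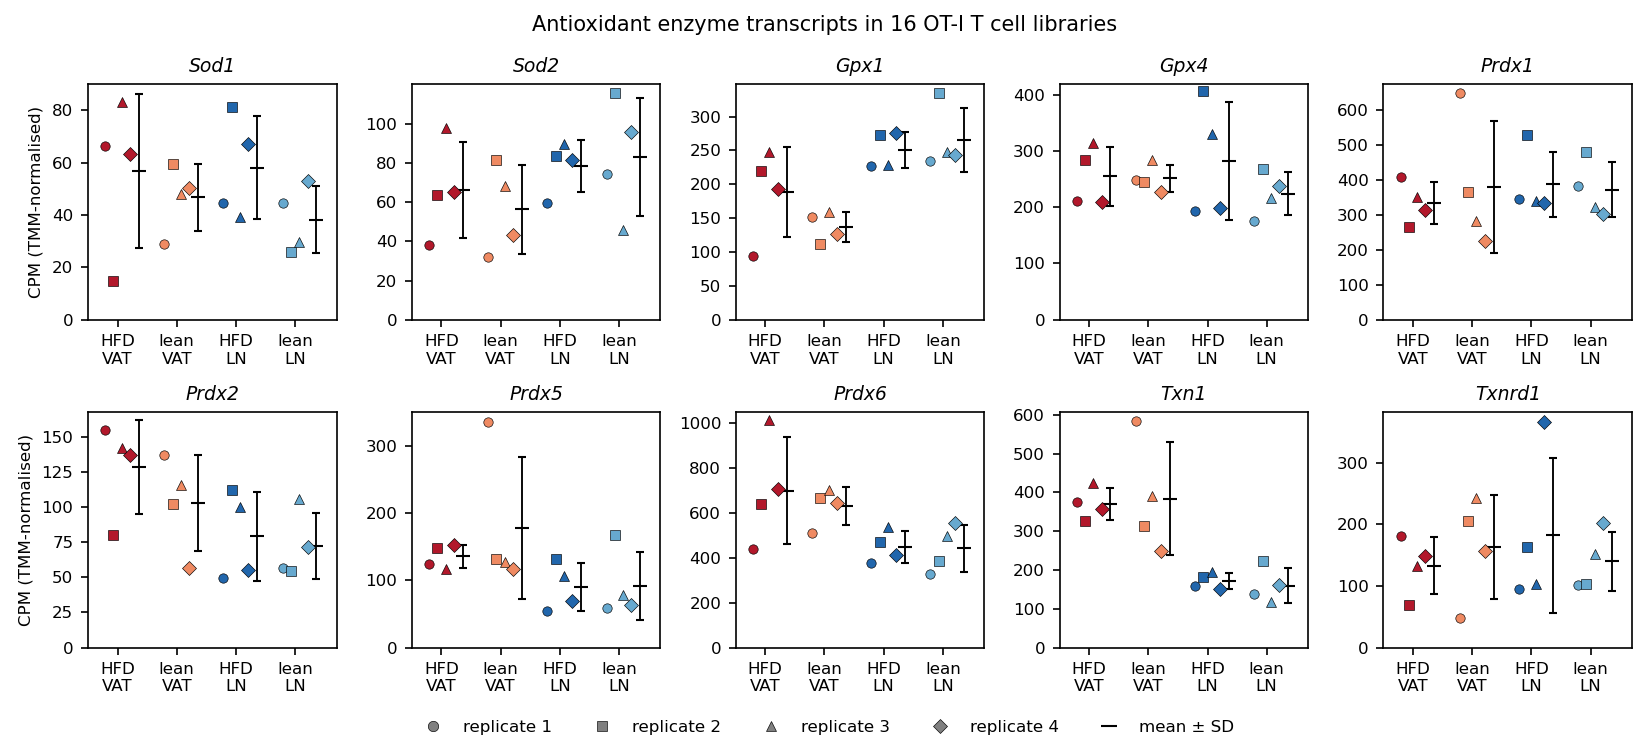
CPM of each of the 10 enzymes (y axes, linear, starting at 0) in the 4 groups, with 1 point per library and bars for the mean and SD (n = 4). Txn1 lies between 248 and 583 CPM in the 8 VAT libraries and between 118 and 223 CPM in the 8 LN libraries, while the groups of most other enzymes overlap.

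The median log2 fold change of the 10 enzymes was -0.09 on HFD, with 4 positive and 6 negative, beside -0.10 over all genes tested. In lean mice it was 0.26, with 8 positive and 2 negative, beside -0.003 over all genes tested. At an unadjusted p under 0.05, edgeR took 2 enzymes on HFD (Txn1 and Prdx6), beside 18.8% of all genes, and 4 in lean mice (Txn1, Gpx1, Prdx5 and Prdx6), beside 13.8%.

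Gpx1, the selenium-containing glutathione peroxidase of the cytosol and mitochondria, had the lowest level in VAT relative to LN of the 10 enzymes in lean mice. There it had 151, 111, 159 and 126 CPM in VAT, against 235, 335, 247 and 243 CPM in LN, with no overlap. The log2 fold change was -0.95 ± 0.25, a 1.93-fold lower mean level in VAT, and the edgeR adjusted p of 0.0605 did not pass. It passed with RLE normalisation (edgeR adjusted p = 0.0305), with DESeq2 (0.000578), with limma voom (0.00488), without HFD VAT replicate 1 (edgeR 0.00735) and without the 3 VAT libraries of high missing share (0.00734). On HFD it had 94.5, 219, 248 and 192 CPM in VAT, against 227, 273, 228 and 275 CPM in LN, and the groups overlapped. There the log2 fold change was -0.41 ± 0.25 (edgeR adjusted p = 0.441), and HFD VAT replicate 1 was the lowest of the 16 libraries.

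Gpx4, the enzyme that reduces lipid peroxides within membranes, had close means in all groups: 254 ± 52.7 CPM in HFD VAT, 251 ± 23.9 CPM in lean VAT, 282 ± 105 CPM in HFD LN and 224 ± 38.4 CPM in lean LN (SD, n = 4 each). Its log2 fold change between tissues was -0.15 on HFD (95% interval -0.67 to 0.37) and 0.16 in lean mice (-0.36 to 0.68). The Gpx4 counts carry some uncertainty, because the pseudogene Gpx4-ps2 took 12.6% of the counts of the pair and reads of such copies can be split between them.

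Prdx6, a peroxiredoxin that reduces phospholipid hydroperoxides and works with glutathione rather than thioredoxin, had 438, 640, 1013 and 704 CPM in HFD VAT, against 376, 468, 537 and 412 CPM in HFD LN. In lean mice it had 509, 667, 700 and 642 CPM in VAT, against 326, 387, 498 and 556 CPM in LN. The means were higher in VAT under both diets and the libraries overlapped in both. The log2 fold change was 0.64 ± 0.23 on HFD (edgeR adjusted p = 0.151) and 0.51 ± 0.23 in lean mice (0.349), and limma voom with quality weights passed it in lean mice (0.0317).

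Prdx5, which acts in mitochondria, peroxisomes and the cytosol, had 125, 148, 117 and 153 CPM in HFD VAT, against 54.2, 132, 107 and 69.0 CPM in HFD LN. In lean mice it had 335, 132, 127 and 117 CPM in VAT, against 59.4, 167, 77.8 and 64.0 CPM in LN. A single library, lean VAT replicate 1, stood far above the other 3 of its group, and the groups overlapped under both diets. The log2 fold change was 0.58 ± 0.42 on HFD (edgeR adjusted p = 0.560) and 0.95 ± 0.42 in lean mice (0.332), and 0.44 in lean mice without that library.

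The cytosolic peroxiredoxins Prdx1 and Prdx2 did not pass in any comparison. Prdx2 averaged 129 ± 33.3 CPM in HFD VAT and 103 ± 34.0 CPM in lean VAT, against 79.2 ± 31.5 CPM in HFD LN and 72.2 ± 23.7 CPM in lean LN. Its log2 fold change between tissues was 0.70 on HFD (95% interval -0.08 to 1.48) and 0.51 in lean mice (-0.27 to 1.29). Prdx1 averaged 335 ± 60.4 CPM in HFD VAT, 382 ± 189 CPM in lean VAT, 388 ± 93.8 CPM in HFD LN and 373 ± 79.2 CPM in lean LN. Its log2 fold change was -0.21 on HFD (-0.84 to 0.42) and 0.03 in lean mice (-0.59 to 0.66). The widest spread of Prdx1 was in lean VAT, from 225 CPM in replicate 4 to 651 CPM in replicate 1. Of named copies, Prdx2-ps1 took 3.15% of the counts of the pair, Prdx2-ps2 took 0.0786%, Prdx6b took 0.489% beside Prdx6, and Prdx1-ps had 0 counts in the 16 libraries.

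Txnrd1, the reductase that recharges thioredoxin, did not pass in any comparison. It had 180, 69.7, 133 and 149 CPM in HFD VAT, against 95.5, 163, 103 and 366 CPM in HFD LN. In lean mice it had 48.1, 205, 243 and 157 CPM in VAT, against 102, 104, 152 and 203 CPM in LN. Libraries of a group differed up to 5.05-fold (lean VAT), and all groups overlapped. The log2 fold change was -0.45 ± 0.51 on HFD and 0.14 without HFD LN replicate 4, its highest library; in lean mice it was 0.22 ± 0.51 (edgeR adjusted p = 0.769 and 0.981).

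The superoxide dismutases, whose CPM were spread over up to a 5.63-fold range within a group, gave no call. Sod1 averaged 56.9 ± 29.4 CPM in HFD VAT and 46.8 ± 12.8 CPM in lean VAT, against 58.1 ± 19.6 CPM in HFD LN and 38.2 ± 12.8 CPM in lean LN. HFD VAT replicate 2 had 14.7 CPM of Sod1, while the other 3 libraries of that group had 63.4 to 83.1 CPM. Sod2 averaged 66.2 ± 24.5 CPM in HFD VAT and 56.3 ± 22.6 CPM in lean VAT, against 78.6 ± 13.3 CPM in HFD LN and 82.9 ± 29.9 CPM in lean LN. The log2 fold changes between tissues were -0.03 (95% interval -1.08 to 1.02) for Sod1 and -0.25 (-1.08 to 0.58) for Sod2 on HFD. In lean mice they were 0.29 (-0.76 to 1.34) and -0.56 (-1.39 to 0.27).

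**Figure D2:**
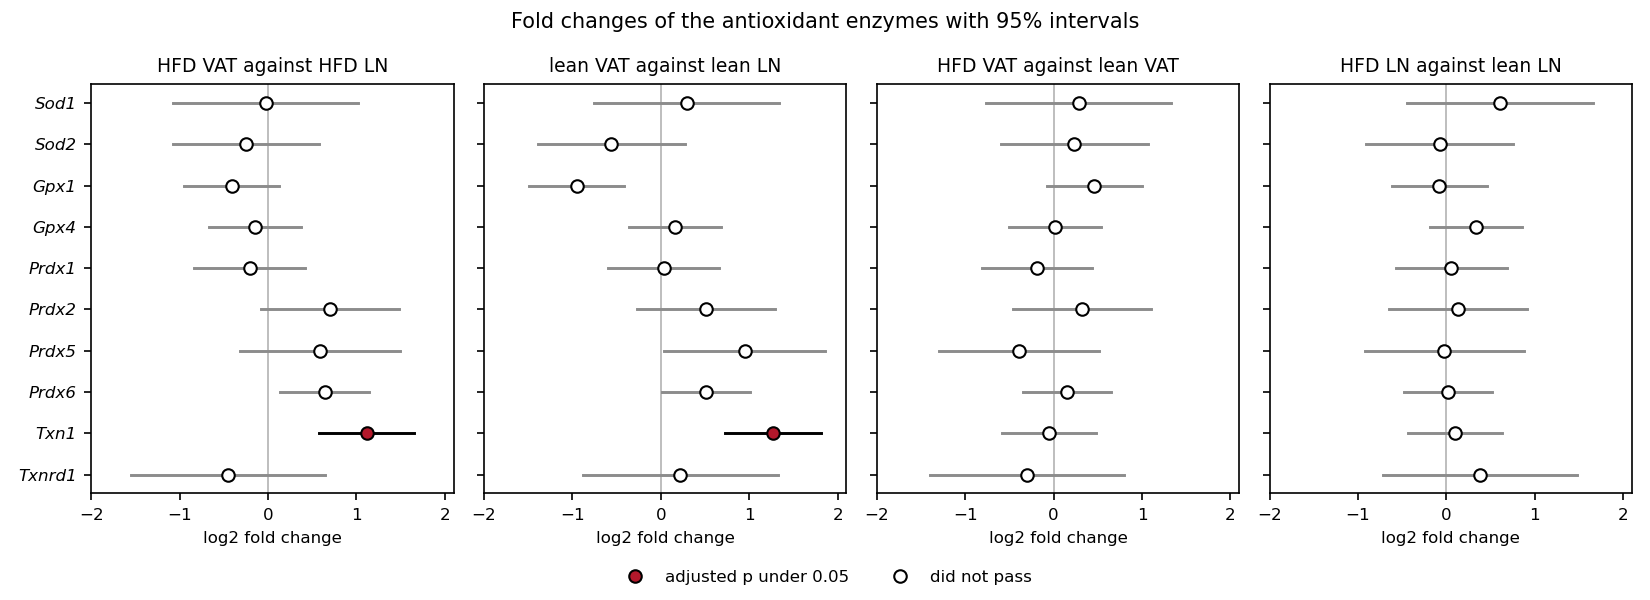
Log2 fold change (x axis) of the 10 enzymes in 4 comparisons, with points for the edgeR estimate (filled where the adjusted p is under 0.05) and bars for the 95% interval. In both tissue comparisons Txn1 is the enzyme farthest to the right, at 1.11 on HFD and 1.27 in lean mice, and in the diet comparisons every interval spans 0.

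The second question was whether the diet changes these enzymes within a tissue. None of the 10 passed the test between HFD VAT and lean VAT, or between HFD LN and lean LN, and none had an unadjusted p under 0.05 in either, where 8.08% of all genes had one in VAT and 3.37% in LN. DESeq2 and limma voom also called 0 in both. Of all genes tested, 9 (0.0574%) were called between HFD and lean VAT with edgeR, 769 with DESeq2 and 32 with voom. Between HFD and lean LN edgeR called 0 (0.0%), with 529 genes at an unadjusted p under 0.05, DESeq2 called 236 and voom 3. Gpx1 had the lowest p in VAT, with 189 ± 66.7 CPM on HFD and 137 ± 22.2 CPM in lean mice, a log2 fold change of 0.46 (95% interval -0.08 to 1.00, edgeR adjusted p = 0.723). For Txn1 the log2 fold change between diets was -0.05 in VAT (-0.59 to 0.48) and 0.10 in LN (-0.43 to 0.63). For Gpx4 it was 0.02 in VAT (-0.50 to 0.54) and 0.33 in LN (-0.19 to 0.85). Sod1 in LN had the largest estimate between diets, 0.60, with an interval of -0.45 to 1.65. The median over the 10 enzymes was 0.09 in VAT, beside -0.10 over all genes tested, and 0.08 in LN, beside 0.001.

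The intervals of the diet effects therefore still include changes of appreciable size. In VAT the upper and lower bounds of Prdx6 are fold changes of 1.57 and 0.785, while those of Txnrd1, with its larger spread, are 1.74 and 0.380. The diet effect of VAT minus that of LN was tested in the same fit, and 0 of the 10 enzymes passed with edgeR, DESeq2 or voom, with 0 at an unadjusted p under 0.05, beside 6.16% of all genes. Over all genes edgeR called 3 (0.0191%). The estimates ran from -0.68 for Txnrd1 (95% interval -2.23 to 0.88) to 0.54 for Gpx1 (-0.22 to 1.30), and Txn1 had -0.15 (-0.91 to 0.60). The tissue difference of Txn1 was thus not shown to depend on diet.

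No library was the highest, or the lowest, for all 10 enzymes. In lean VAT, replicate 1 was the highest library for Prdx1, Prdx2, Prdx5 and Txn1 and the lowest for Prdx6, Sod1, Sod2 and Txnrd1. In HFD VAT, replicate 3 was the highest for 6 enzymes and replicate 2 the lowest for 5. In LN, HFD replicate 1 was the lowest for 7 enzymes and HFD replicate 2 the highest for 5, and lean replicate 2 was the highest for 6. Summed over the 10 enzymes, levels ran from 2091 to 2925 CPM in HFD VAT and 1892 to 2726 CPM in lean VAT, against 1604 to 2431 CPM in HFD LN and 1592 to 2159 CPM in lean LN.

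**Figure D3:**
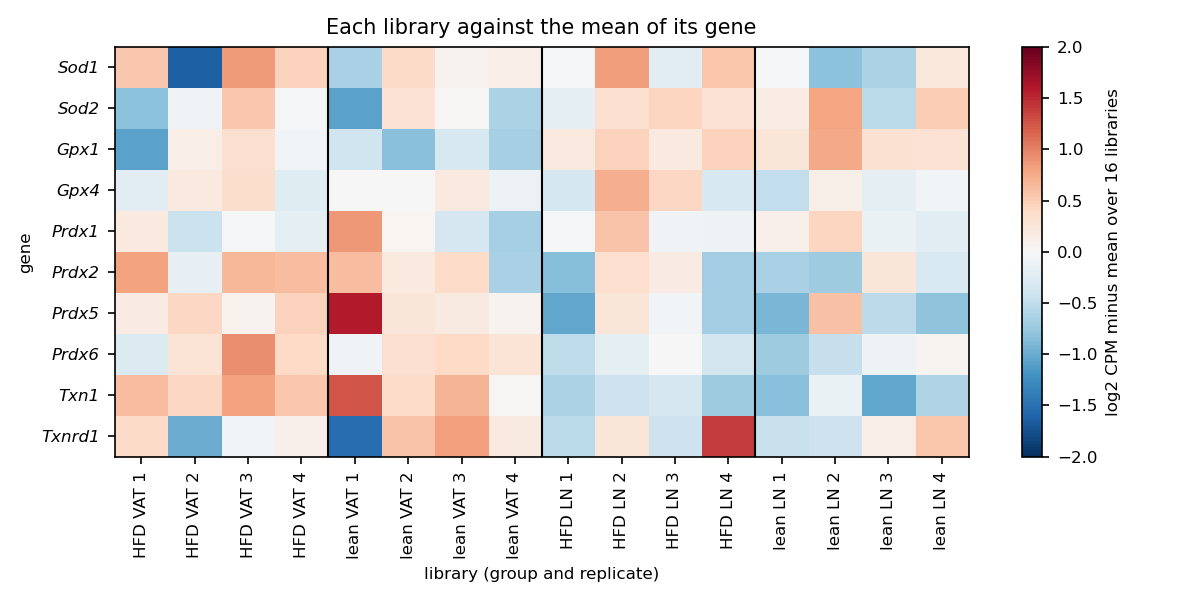
Level of each enzyme (rows) in each of the 16 libraries (columns) as its log2 CPM minus the mean over the 16 libraries, red where higher and blue where lower. Txn1 is below its mean in the 8 LN libraries and highest in lean VAT replicate 1, which is also high for Prdx1, Prdx2 and Prdx5 and low for Sod2 and Txnrd1.

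Across the 16 libraries, the pair of enzymes with the most similar log2(CPM + 1) was Prdx5 and Txn1 (Pearson r = 0.81), and the pair with the least similar was Gpx1 and Txn1 (r = -0.55). For the gene most like each enzyme, the other enzymes, receptor and immunoglobulin segments, unnamed models and pseudogenes were left out. On that basis Fth1, the heavy chain of the iron store ferritin, was the most like Txn1 (r = 0.96). The gene most like Gpx1 was Akr1b3, an aldose reductase (r = 0.90), and for Prdx6 it was its own copy Prdx6b (r = 0.92). Prdx5 was most like Sec61g (r = 0.91), a subunit of the protein channel of the endoplasmic reticulum, and Prdx2 most like Ndufc2 (r = 0.86), a subunit of respiratory complex I. For the others the closest genes were Cdk2ap1 for Sod1 (r = 0.88), Slmap for Txnrd1 (r = 0.87), Olfr77 for Prdx1 (r = 0.85), Bpnt2 for Sod2 (r = 0.83) and Cebpzos for Gpx4 (r = 0.74). These values describe the libraries and carry no test, since the 16 points fall into 4 groups, share library effects, and the genes were picked as the maximum of many.

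Around the 10 enzymes, 84 of 85 genes in 8 lists of the redox system are in the table and 69 were tested. In the list of thioredoxin and glutaredoxin partners, Txnip fell in VAT under both diets, the reverse of Txn1. Txnip had 549, 469, 548 and 641 CPM in HFD VAT, against 1014, 1048, 1088 and 1176 CPM in HFD LN, and 341, 644, 636 and 600 CPM in lean VAT, against 986, 847, 936 and 1176 CPM in lean LN. No VAT library reached the lowest LN library of its diet. Its log2 fold change was -0.97 ± 0.18 on HFD, or 1.96-fold lower (edgeR adjusted p = 0.00564), and -0.83 ± 0.18 in lean mice, or 1.78-fold lower (0.0196). The lean call was lost without lean LN replicate 1 (edgeR adjusted p = 0.0521) or 4 (0.0761) and when only the lean groups were fitted (0.125).

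Glrx, the cytosolic glutaredoxin, which uses glutathione to reverse the glutathionylation of proteins, rose in VAT on HFD. It had 190, 111, 142 and 216 CPM in HFD VAT, against 17.5, 18.1, 29.4 and 5.72 CPM in HFD LN. The log2 fold change was 3.22 ± 0.72, or 9.32-fold (edgeR adjusted p = 0.0201), and the call was lost without HFD LN replicate 1, 2 or 4 (0.0601 to 0.0629) or without the 3 VAT libraries of high missing share (0.0798). In lean mice the means were 152 ± 56.5 CPM in VAT and 25.6 ± 19.5 CPM in LN; the libraries did not overlap, but the gene was not called (edgeR adjusted p = 0.0724). The diet effect of VAT minus that of LN was 0.65 on the log2 scale (95% interval -1.37 to 2.67). Of the 14 partners tested, 1 rose and 1 fell on HFD and 0 rose and 1 fell in lean mice, beside 2.68% of all genes higher and 1.88% lower on HFD and 2.12% and 0.919% in lean mice. The list medians were -0.13 on HFD and -0.11 in lean mice, beside -0.10 and -0.003 over all genes tested.

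**Figure D4:**
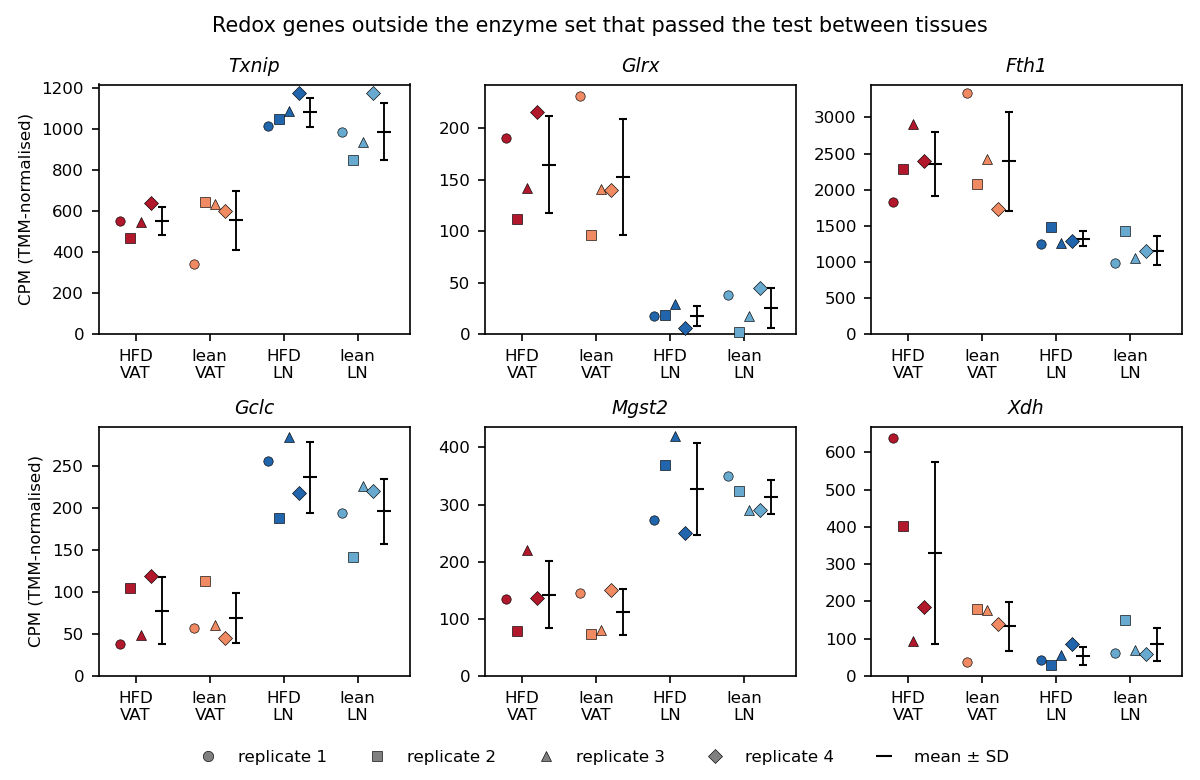
CPM per library (y axes, linear, starting at 0) of the 6 called genes of the redox lists in the 4 groups, with bars for the mean and SD (n = 4). Txnip lies at 341 to 644 CPM in the 8 VAT libraries and at 847 to 1176 CPM in the 8 LN libraries, while Fth1 lies at 1729 to 3337 CPM in VAT and at 982 to 1480 CPM in LN.

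The ratio of Txn1 to Txnip CPM, computed after their values were seen and given only as a description, was 0.556 to 0.775 in HFD VAT and 0.413 to 1.71 in lean VAT, against 0.128 to 0.178 in HFD LN and 0.126 to 0.263 in lean LN. CPM are not scaled to length, so the ratio compares libraries and does not say which transcript was the more abundant.

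Glutathione supply held 2 genes called lower under each diet and none higher, of 10 tested, beside 1.88% of all genes called lower on HFD and 0.919% in lean mice. Gclc, the catalytic subunit of the rate-limiting enzyme of glutathione synthesis, averaged 77.5 ± 39.8 CPM in HFD VAT and 236 ± 42.1 CPM in HFD LN, and 69.2 ± 29.9 CPM in lean VAT and 195 ± 38.5 CPM in lean LN. That was 3.05-fold lower in VAT on HFD (edgeR adjusted p = 0.0248) and 2.82-fold lower in lean mice (0.0459). The HFD call of Gclc was lost without HFD LN replicate 1, 3 or 4 or HFD VAT replicate 1 or 3 (edgeR adjusted p 0.0518 to 0.0705), and the lean call without any of 12 of the 16 libraries, all but HFD VAT replicates 1, 3 and 4 and lean VAT replicate 2 (0.0539 to 0.142). Both calls of Gclc were also lost with no filter (0.0527 on HFD and 0.0897 in lean mice), with only the groups compared (0.0705 and 0.0604) and with the replicate block (0.0537 and 0.0933), and that on HFD without the 3 VAT libraries of high missing share (0.139, at a log2 fold change of -1.10). Mgst2, a membrane glutathione transferase that can also reduce lipid peroxides, averaged 142 ± 58.1 CPM in HFD VAT and 328 ± 80.1 CPM in HFD LN, and 112 ± 40.7 CPM in lean VAT and 314 ± 29.4 CPM in lean LN. It was 2.30-fold lower on HFD (edgeR adjusted p = 0.0433) and 2.79-fold lower in lean mice (0.0171). Its HFD call was lost without any of 11 libraries, all but HFD VAT replicate 3 and the 4 of lean VAT (edgeR adjusted p 0.0531 to 0.118), and its lean call without lean LN replicate 1 or lean VAT replicate 2 or 3 (0.05002 to 0.0638). On HFD it was also lost with the upper quartile (0.0697), no filter (0.0731), only the groups compared (0.0930) and the replicate block (0.0752). For both genes, no VAT library reached the lowest LN library of its diet. The list medians were -0.65 on HFD and -0.55 in lean mice, beside -0.10 and -0.003 over all genes tested.

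Iron and metal binding and oxidant sources held the other calls. Fth1 had 1826, 2283, 2906 and 2391 CPM in HFD VAT, against 1253, 1480, 1261 and 1286 CPM in HFD LN, with no overlap. It was 1.78-fold higher in VAT on HFD (log2 fold change 0.83 ± 0.19, edgeR adjusted p = 0.0231) and 2.07-fold higher in lean mice (1.05 ± 0.19, 0.00614), where it averaged 2391 ± 691 CPM in VAT and 1154 ± 197 CPM in LN. The HFD call was lost without HFD LN replicate 1, 3 or 4 or HFD VAT replicate 3 (edgeR adjusted p 0.0609 to 0.0690), with the upper quartile (0.0561) or with the replicate block (0.0616), and the lean call with only the groups compared (0.0506). Ftl1, the light chain of ferritin, did not pass, with log2 fold changes of 0.08 and 0.24. Xdh, xanthine dehydrogenase, which in its oxidase form makes superoxide and hydrogen peroxide, had 639, 402, 93.4 and 185 CPM in HFD VAT, against 43.0, 30.4, 56.3 and 87.0 CPM in HFD LN. That was 6.08-fold (log2 fold change 2.60 ± 0.63, edgeR adjusted p = 0.0295), and the call was lost without HFD LN replicate 1, 2 or 3 or HFD VAT replicate 1 or 2 (0.0670 to 0.0938), with no filter (0.0593), with only the groups compared (0.0656) or with the replicate block (0.0984). In lean mice Xdh overlapped, with 133 ± 65.9 CPM in VAT and 85.2 ± 44.3 CPM in LN (edgeR adjusted p = 0.842), and the diet effect of VAT minus that of LN was 1.97 on the log2 scale (95% interval 0.15 to 3.78, edgeR adjusted p = 0.756). Cyba, the membrane subunit of the phagocyte-type NADPH oxidase, had no overlap under either diet and no call, at log2 fold changes of 1.04 (edgeR adjusted p = 0.0588) and 0.93 (0.124). Of 6 oxidant sources tested, 1 rose on HFD and 0 in lean mice, with list medians of 1.34 and 0.49, and of 4 iron and metal genes 1 rose under each diet, with medians of 1.14 and 0.65. Over all genes tested, 2.68% were called higher on HFD and 2.12% in lean mice, and the medians were -0.10 and -0.003. All 6 oxidant sources had a positive estimate under both diets. At an unadjusted p under 0.05, edgeR took 5 of them on HFD, beside 18.8% of all genes, and 2 in lean mice, beside 13.8%. Libraries did not overlap for 4 on HFD, beside 15.2% of all genes, and for 1 in lean mice, beside 12.9%.

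**Figure D5:**
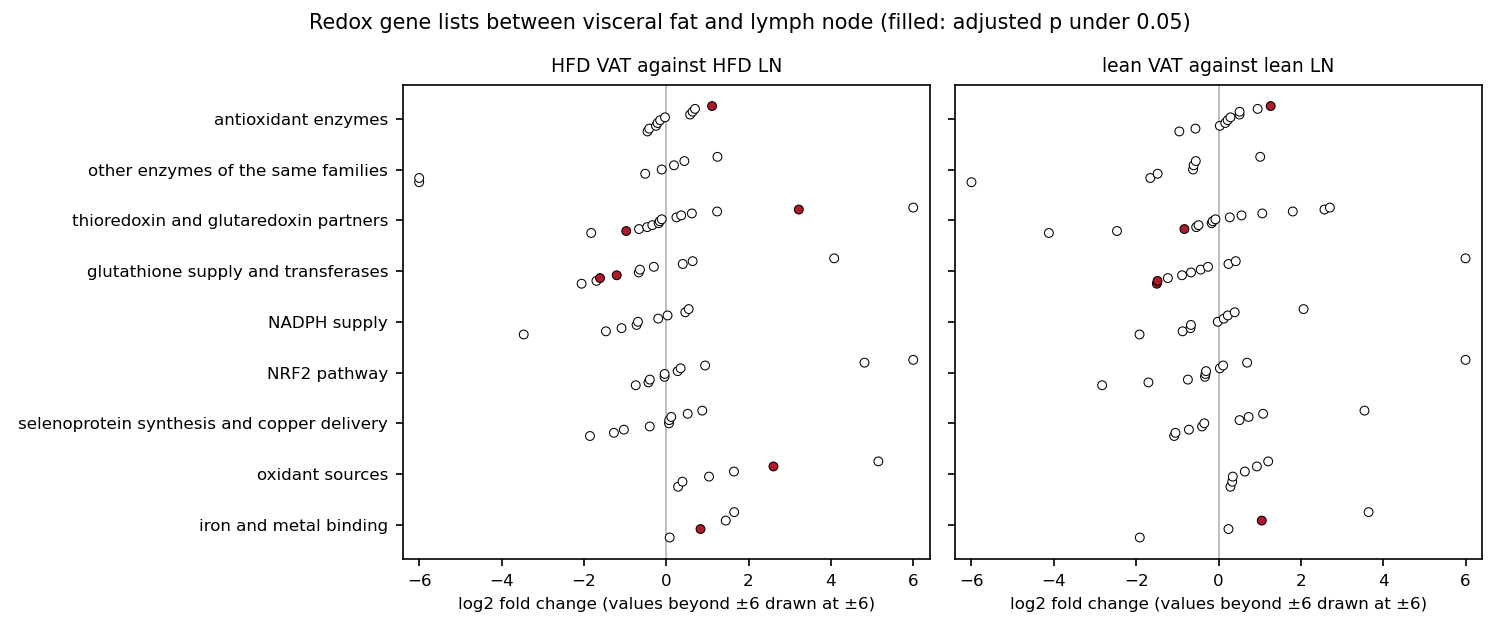
Log2 fold change (x axis) of each tested gene in the 8 redox lists and of the 10 enzymes for VAT against LN on HFD and in lean mice, with filled points for calls and values beyond 6 in size drawn at the edge. The called genes are Txn1, Txnip, Glrx, Gclc, Mgst2, Fth1 and Xdh, and the lists of NADPH supply, the NRF2 pathway, selenoprotein synthesis and the same enzyme families hold no call.

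The remaining lists gave no call between tissues. None of 7 tested relatives of the enzymes passed: Prdx3, the mitochondrial peroxiredoxin, averaged 71.8 CPM in HFD VAT and 77.5 CPM in HFD LN, and 21.1 CPM in lean VAT and 66.5 CPM in lean LN (edgeR adjusted p = 0.636 in lean mice). Catalase (Cat), which splits hydrogen peroxide, averaged 102 CPM in HFD VAT and 145 CPM in HFD LN, and 62.4 CPM in lean VAT and 174 CPM in lean LN, where the libraries did not overlap (edgeR adjusted p = 0.740 in lean mice). These lean VAT means span wide ranges, 0.045 to 41.2 CPM for Prdx3 and 0 to 104 CPM for Cat. In the NRF2 list 0 of 10 passed: the factor's own gene Nfe2l2 averaged 134 CPM in HFD VAT and 138 CPM in HFD LN, and 123 CPM in lean VAT and 155 CPM in lean LN. Keap1, which marks NRF2 for degradation, averaged 191 CPM in HFD VAT and 99.3 CPM in HFD LN, and 108 CPM in lean VAT and 66.5 CPM in lean LN (edgeR adjusted p = 0.179 and 0.466). In NADPH supply 0 of 9 passed, with G6pdx, the first enzyme of the pentose phosphate route, at 41.7 CPM in HFD VAT and 88.5 CPM in HFD LN, and 46.3 CPM in lean VAT and 84.7 CPM in lean LN. Libraries of G6pdx ran from 0.027 to 103 CPM in HFD VAT and from 0 to 111 CPM in lean VAT. In selenoprotein synthesis and copper delivery, on which Gpx1, Gpx4, Txnrd1 and Sod1 depend, 0 of 9 passed, with Secisbp2, which recognises the selenocysteine signal in mRNA, at 28.4 CPM in HFD VAT and 103 CPM in HFD LN (edgeR adjusted p = 0.303), and 30.8 CPM in lean VAT and 65.0 CPM in lean LN (0.790). At an unadjusted p under 0.05, these 4 lists held 1, 3, 3 and 0 genes on HFD, beside 18.8% of all genes, and 1, 1, 0 and 2 in lean mice, beside 13.8%. Their median log2 fold changes were -0.11, 0.12, -0.69 and 0.07 on HFD, beside -0.10 over all genes, and -0.62, -0.31, -0.02 and -0.345 in lean mice, beside -0.003. No gene of the 8 lists passed in either diet comparison or for the difference between diet effects.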

How the data were processed

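RNA of 16 libraries, 4 per group, was measured by sequencing. The authors deposited whole-number read counts that had not been normalised, for 54456 gene rows in 16 columns. The tools named per the submitters' processing notes are kallisto 0.42.4 and DESeq2, and the build is GRCh38. The gene names, however, are mouse names, and GRCh38 is human. The step from kallisto's estimates to whole counts is not given in the sources used here. PCR copies were not marked, so reads are not independent molecules.

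Genes passing edgeR's filterByExpr (15675) were tested with edgeR 4.0.16 in R 4.3.3: TMM scaling, robust estimates of the spread (common dispersion 1.52), a single fit of all 4 groups, the quasi-likelihood F-test, Benjamini-Hochberg over the genes tested, threshold 0.05. SE and 95% intervals were derived from the F statistic and the log2 fold change. The comparisons were VAT against LN on each diet, HFD against lean in each tissue, and the diet effect of VAT minus that of LN. The tissue and diet comparisons share groups and are not independent. The labels call the libraries biological replicates without naming animals, so p-values measure the spread between libraries. Replicate pairs differed by chi-square values of 292 to 1099 per degree of freedom, far above sampling noise, and none was counted as a repeat of another.

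The members, the lists and the 9 marker lists were chosen with earlier results of these data known. Named genes were all 10 enzymes, their named copies, and up to 2 called genes per redox list, comparison and direction. For each enzyme the most correlated gene was also named, leaving out the other enzymes, receptor and immunoglobulin segments, unnamed models and pseudogenes. The other genes named from the redox lists, Cyba and Ftl1 included, were chosen after their values were seen. Proteins were not used here. Alternatives were RLE, upper quartile, no filter, a filter of 5 CPM in at least 4 libraries, DESeq2 1.42.0, limma 3.58.1 voom with quality weights, a replicate block, only the groups compared, leaving out the 3 VAT libraries of high missing share, and leaving out each library. The pipeline was run on simulated counts whose dispersion was set far below the fitted value. That run checked the code and does not give the error rate in these data. Python 3.11.15 with pandas 2.3.3, NumPy 2.4.6, SciPy 1.17.1 and Matplotlib 3.10.9 wrote the tables and drew the plots.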

Additional observations from a re-analysis of the deposited data

Results flagged for a closer look

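Libraries that stood apart were looked for in 64 sets of 4 values (the 10 enzymes and the 6 called redox genes in each group) by Dixon's criterion at 95%, which sets the gap to the nearest library against the range of the group. This marked 6 values, and chance marks about 1 set in 20. Prdx5 had 335 CPM in lean VAT replicate 1, where the next library had 132 CPM. Txnip had 341 CPM in the same library, the lowest of its group, where the next had 600 CPM. Prdx1 had 528 CPM in HFD LN replicate 2, where the next had 348 CPM, and Fth1 had 1480 CPM in that library, where the next had 1286 CPM. Gpx1 had 335 CPM in lean LN replicate 2, where the next had 247 CPM, and Xdh had 151 CPM in that library, where the next had 69.8 CPM. Lean VAT replicate 1 also had the largest missing share, 13.3%, whose part in these values was not tested.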

How the results depend on the processing

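Counts of called enzymes and genes changed with several settings, and the cause was not tested. Txn1 kept a positive tissue difference under both diets under all 25 alternatives. Between tissues on HFD, 0 enzymes were called without the 3 VAT libraries of high missing share, and 0 to 1 with 1 library left out. Between tissues in lean mice, 2 were called with RLE, 2 with DESeq2, 3 with voom, 0 with only the groups compared, 2 without the 3 VAT libraries and 1 to 2 with 1 library left out. Over all genes, the 714 calls between tissues on HFD became 441 with no filter and 2578 with DESeq2 (483 to 886 with 1 library left out). The 476 calls in lean mice became 1569 with DESeq2 and 1350 with voom (325 to 492). Between diets in VAT, 9 calls became 2 with no filter, 769 with DESeq2, 32 with voom, 0 with only the groups compared, 1 with the replicate block and 62 without the 3 VAT libraries (3 to 40). Between diets in LN, 0 became 236 with DESeq2 and 3 with voom (0 to 1). For the difference between diet effects, 3 became 1 with the upper quartile, 1 with no filter, 1 with the filter of 5 CPM, 635 with DESeq2, 6 with voom, 0 with the replicate block and 46 without the 3 VAT libraries (0 to 24). With the 16 libraries left out in turn, the enzymes called between diets and for the difference stayed at 0. The difference between diet effects needs all groups, so the fit of only the groups compared gives no value for it.

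The replicate numbers are shared by the groups, but the labels do not say that a number marks 1 animal or day. The deviations of same-numbered libraries from their group means correlated at -0.098 to 0.045 over 24 pairs, with 0 over 0.1, and 4 of 16 libraries correlated best with their own number. With the replicate block 505 genes were called between tissues on HFD and 337 in lean mice, and Txn1 stayed called under both diets (edgeR adjusted p = 0.0492 and 0.0418). The block ended the calls of Gclc under both diets and of Mgst2, Xdh and Fth1 on HFD.

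Of 1490 alternative values of single genes, 1341 kept direction and side of the threshold, 69 lost the call, 6 gained it and 74 changed sign, 0 of them for a gene called in the reported fit. The log2 fold changes that changed sign were these. With RLE normalisation these were Prdx1 -0.064 between tissues in lean mice, and Txn1 0.054 between diets in VAT. With no filter these were Prdx1 -0.047 between tissues in lean mice. With the filter of 5 CPM these were Gpx4 -0.029 between diets in VAT. With DESeq2 these were Prdx1 -0.064 between tissues in lean mice, and Txn1 0.054 between diets in VAT. With voom these were Prdx1 -0.20 between tissues in lean mice, Gpx4 -0.034, Prdx1 0.048, Prdx5 0.11, Prdx6 -0.0077, Sod1 -0.31, Sod2 -0.014 and Txn1 0.16 between diets in VAT, Prdx2 -0.048, Prdx5 0.12 and Sod2 0.074 between diets in LN, and Prdx6 -0.0084 and Sod2 -0.088 in the diet effect of VAT minus that of LN. With the replicate block these were Prdx1 -0.029 between tissues in lean mice, Gpx4 -0.00898 between diets in VAT, and Prdx5 0.026 between diets in LN. Without the 3 VAT libraries of high missing share these were Prdx1 -0.38 between tissues in lean mice, Gpx4 -0.016, Prdx1 0.0052, Prdx5 0.28, Sod1 -0.42 and Txn1 0.11 between diets in VAT, and Prdx5 0.29, Prdx6 -3.6e-05 and Txn1 0.013 in the diet effect of VAT minus that of LN. With 1 library left out, between tissues on HFD the ranges were Gpx4 -0.29 to 0.082, Sod1 -0.27 to 0.29 and Txnrd1 -0.66 to 0.14. Between tissues in lean mice the ranges were Prdx1 -0.36 to 0.21 and Txnrd1 -0.037 to 0.52. Between diets in VAT the ranges were Gpx4 -0.095 to 0.10, Prdx1 -0.37 to 0.20, Prdx5 -0.54 to 0.12, Prdx6 -0.081 to 0.32, Sod2 -0.014 to 0.48 and Txn1 -0.21 to 0.22. Between diets in LN the ranges were Gpx1 -0.14 to 0.051, Prdx1 -0.13 to 0.20, Prdx2 -0.084 to 0.38, Prdx5 -0.27 to 0.43, Prdx6 -0.10 to 0.15, Sod2 -0.28 to 0.12, Txn1 -0.019 to 0.30 and Txnrd1 -0.21 to 0.61. In the diet effect of VAT minus that of LN the ranges were Prdx1 -0.42 to 0.15, Prdx2 -0.038 to 0.41, Prdx5 -0.82 to 0.14, Prdx6 -0.099 to 0.30, Sod1 -0.55 to 0.0021 and Txn1 -0.35 to 0.13.

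The settings that ended a call of a redox gene or of Txn1 stand beside that call. Txnip on HFD was called under all 25 alternatives. RLE moved the median of all genes by at most 0.097 on the log2 scale. The lowest count of an enzyme was 648 reads, but reads are not independent molecules, so the sampling error is not known from it.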
